A study of Mus musculus with 6 samples.

Results

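The 30 genes described here are regulators and transcriptional targets of the hypoxia-inducible factors (HIF), chosen by symbol from the 21959 genes of the deposited table, and all 30 were found. Of these, 7 encode regulators (the HIF alpha subunits and the proteins that sense oxygen or degrade them) and 23 encode targets. The values come from 6 poly(A)-selected RNA libraries of a wild-type mouse cell line labelled HL-1, an atrial cardiomyocyte line. In 3 libraries the cells received phillyrin and were deprived of oxygen and glucose, then reoxygenated (OGD/R). Phillyrin, a lignan glucoside of Forsythia, was given at 50 µg/mL for 8 h beforehand and for 16 h together with OGD/R. In the other 3 the cells underwent OGD/R alone. Deprivation lasted 4 h and reoxygenation 24 h in both groups; the labels do not say how the 16 h of phillyrin lie within it. Normoxic cells and a vehicle control were not analysed here, so the values describe phillyrin against no phillyrin in cells that had all been reoxygenated, and not a response to hypoxia. Whether replicate libraries stem from separate cultures is not in the labels, so the p-values rest on differences among the libraries that may be technical.

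In oxygenated cells, prolyl hydroxylases mark the HIF alpha subunits for the von Hippel-Lindau ubiquitin ligase, and the subunits are degraded. When oxygen falls, the marking slows, the alpha subunit accumulates, joins its partner ARNT and binds the core element ACGTG or GCGTG near target genes, where the coactivators p300 and CBP are recruited. The targets serve angiogenesis, glycolysis, mitochondrial turnover, pH control and the cross-linking of collagen. Because oxygen acts mainly on the stability of the alpha subunit protein, RNA levels of the alpha subunits do not measure HIF activity. HIF protein and its binding were not analysed here, so changes of target RNA are not assigned to HIF.

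Library totals lay between 14761317 and 22123648 counts. The first principal component held 48.4% of the variance and separated the groups. The second held 15.8% and spread the phillyrin libraries, with replicate 3 at one end. Mitochondrially encoded genes took 3.49%, 3.59% and 4.27% of the counts in the phillyrin libraries and 3.18%, 3.30% and 3.27% in the OGD/R libraries, and the part of this difference in the results below was not tested. The atrial label was not borne out by most of its markers. Of 18 atrial cardiomyocyte markers, 13 stayed below 0.5 CPM (counts scaled to a common library total) in all libraries, and Myh6, Actn2, Mybpc3, Sln and Hand2 had 0 counts in all of them. Of 11 skeletal myoblast markers, 1 stayed below 0.5 CPM in all libraries. Myog, another of them, had 0.819, 0.503 and 0 CPM with phillyrin and 0.379, 0.0965 and 0.579 CPM with OGD/R alone. Myod1, a master regulator of skeletal muscle, had 92.9, 101 and 97.8 CPM with phillyrin, against 83.3, 85.3 and 80.9 CPM with OGD/R alone. The myoblast markers did not move together. Myod1 rose by 0.23 on the log2 scale, while Myf5 (−0.29), Chrna1 (−0.17), Chrnd (−0.43), Cdh15 (−0.36) and the low Mymk (−1.55) fell, and Des, Pax7 and Msc did not pass. Their part in the results below was not tested. The cells are therefore called the cells labelled HL-1.

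Of these HIF pathway genes, 6 passed the test with phillyrin, 21.4% of those tested beside 31.7% of all tested genes, and their changes were small. Of the 28 members with enough counts to be tested, 5 rose with phillyrin: Lox, Plod2, Bhlhe40, Ero1a and Vegfa, by 1.15-fold to 1.26-fold. Fam162a alone fell, to 0.833 of its OGD/R level. The other 22 did not pass the threshold, an adjusted p of 0.05 in edgeR's quasi-likelihood test across all tested genes. Over the whole table, 31.7% of the 11658 tested genes passed, 16% higher and 15.6% lower. The members' shares of 17.9% higher and 3.57% lower are to be read against these. Without scaling factors for library composition, 1313 genes passed as higher and 2455 as lower over the whole table, against 1871 and 1823 with them. In CPM scaled with these factors, the 3 libraries of each group did not overlap for 9 members, 6 higher and 3 lower with phillyrin. Of all tested genes, 43.1% did not overlap (21.5% higher, 21.6% lower). With each library left out in turn, 5 to 7 members rose and 1 to 2 fell, the additional ones being Hif1a, P4ha2, Car9 and Ddit4 as given below. The members' median log2 fold change was 0.01, beside −0.01 over all tested genes. When the test asked for a change beyond 0.32 on the log2 scale (edgeR's glmTreat), 0 members passed, and 0 had an unadjusted p under 0.05, where 2.7% of tested genes passed.

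**Figure D1:**
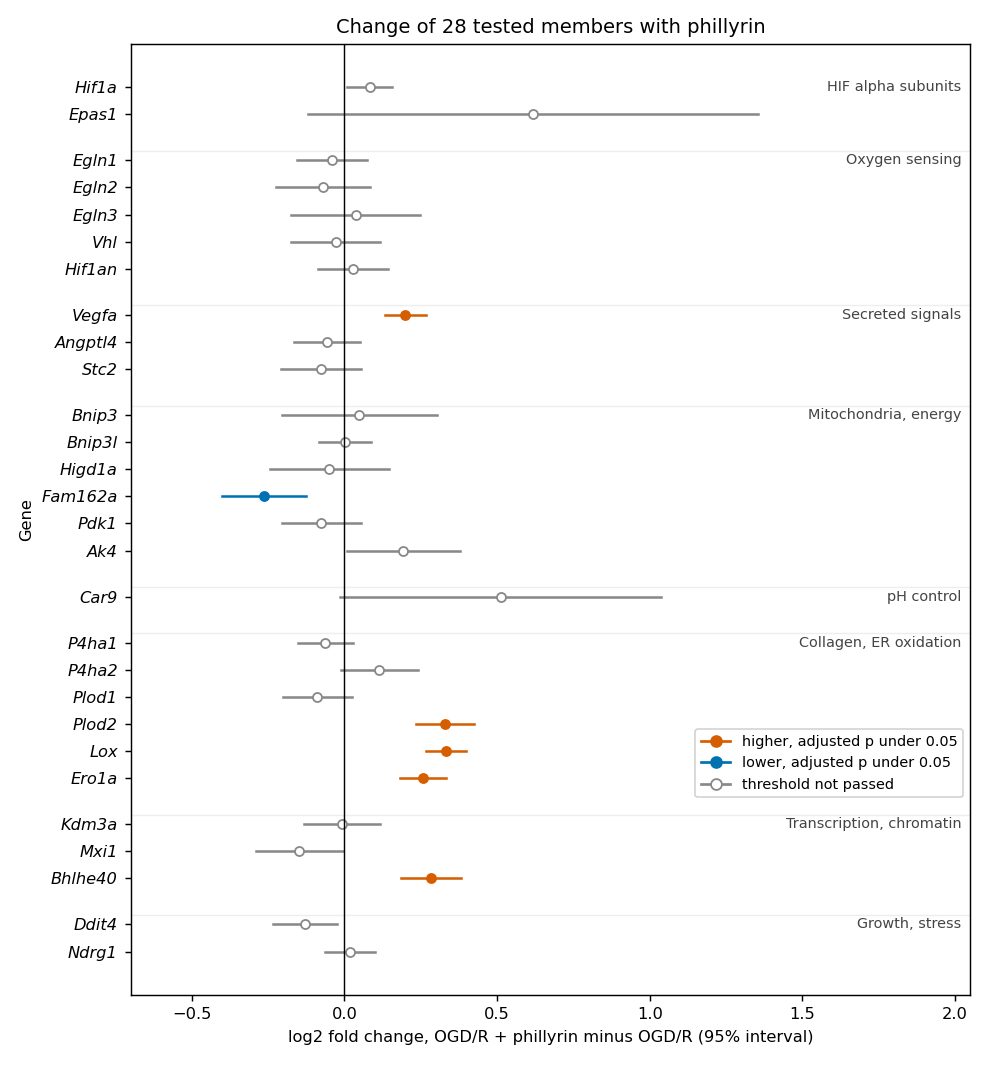
Log2 fold change of each tested member, OGD/R with phillyrin minus OGD/R (horizontal axis), with its 95% interval, for 3 libraries per group; members are grouped by role and filled points passed an adjusted p of 0.05. Lox, Plod2, Bhlhe40, Ero1a and Vegfa lie to the right of 0 and Fam162a to the left, while the intervals of Epas1 and Car9, the tested members with the fewest counts, are the widest.

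The members spanned a wide range of transcript levels, compared here per gene length as the deposited FPKM (fragments scaled by gene length and library total). Lox was the most abundant member, with 193 ± 6.12 FPKM with phillyrin and 158 ± 1.92 FPKM with OGD/R alone (mean ± SD, n = 3 each, as throughout). Vegfa followed with 130 ± 2.81 FPKM with phillyrin and 117 ± 2.17 FPKM with OGD/R alone, and Ero1a with 76.4 ± 3.95 and 65.8 ± 1.19 FPKM in the same order. Of the summed FPKM of all members, Lox alone made up 23.9% ± 0.346 with phillyrin and 20.6% ± 0.269 with OGD/R alone. Ddit4, Bnip3l, Hif1a, Fam162a, Angptl4 and P4ha1 came next, in that order with phillyrin. With OGD/R alone Fam162a averaged above Hif1a, at 44.4 ± 0.906 against 40.1 ± 0.348 FPKM, and their ranges did not overlap. In the phillyrin libraries the ranges of Ddit4 and Bnip3l overlapped, as did those of Fam162a and Angptl4, so these neighbours have no settled order. The same held for Ndrg1, Plod2 and Bhlhe40 in the middle of the order, for Vhl, P4ha2 and Egln2, and for Pdk1, Higd1a and Kdm3a. It also held for Hif1an and Plod1, and for Egln3, Mxi1, Ak4 and Bnip3. At the low end stood Car9 with 1.23 ± 0.39 FPKM with phillyrin and 0.888 ± 0.213 FPKM with OGD/R alone, and below it Epas1 and Ankrd37. The ranges of Epas1 and Ankrd37 overlapped in both groups, so their order is not settled. Adm, which encodes the vasodilator peptide adrenomedullin, had 0 counts in the 3 phillyrin libraries and 0, 1 and 0 counts in the OGD/R libraries, where 0 counts allow a level of up to 0.136 to 0.203 CPM depending on the library.

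**Figure D2:**
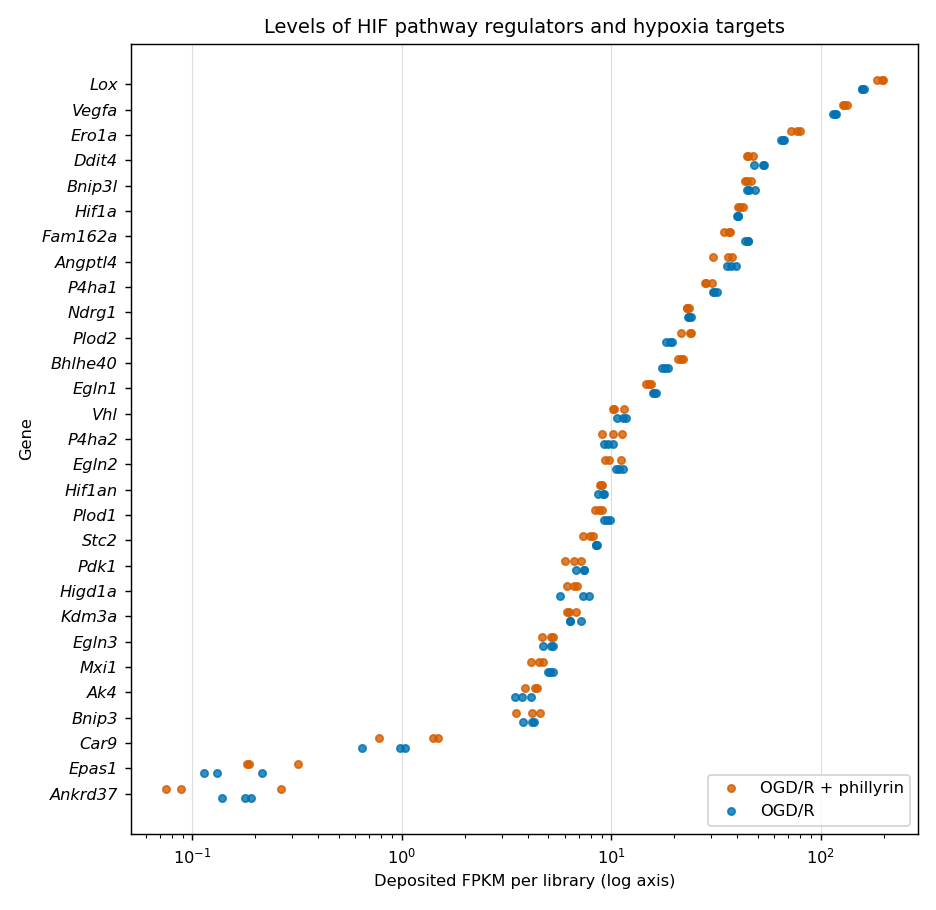
Deposited FPKM of the members in each library (log axis), one dot per library, with 3 phillyrin libraries above 3 OGD/R libraries for each gene, ordered by the phillyrin mean; Adm, with 1 count in all libraries together, is not drawn. Lox, Vegfa and Ero1a stand above the rest, and Car9, Epas1 and Ankrd37 below.

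Of the 7 regulators, 0 passed the edgeR test, beside 31.7% of all tested genes, and likewise 0 with DESeq2 and with limma-voom. Among them 1, Hif1a, had an unadjusted p under 0.05 with each of the 3 tools. Hif1a (chr12:73948149-73994304, GRCm39 as in the table for all gene positions here), the alpha subunit present in most cells, had 252, 245 and 243 CPM with phillyrin, against 232, 231 and 236 CPM with OGD/R alone. On this scale every phillyrin library was above every OGD/R library, yet the difference was small and missed the threshold, with a log2 fold change of 0.08 (95% interval 0.01 to 0.16, adjusted p = 0.0818). As FPKM, without scaling factors for library composition, the groups overlapped, with 40.1 in phillyrin replicate 3 and 40.5 in OGD/R replicate 3. Without phillyrin replicate 3 Hif1a passed, with a log2 fold change of 0.10 (adjusted p = 0.0389). Hif1a overlaps Snapc1l on the same strand by 9878 bases, and Snapc1l had a mean count of 0. Epas1 (chr17:87061128-87140838), which encodes HIF-2 alpha, the subunit prominent in endothelium, was nearly absent, with 31, 23 and 15 counts with phillyrin and 22, 15 and 12 with OGD/R alone. Its log2 fold change of 0.62 had an interval of −0.12 to 1.35 (adjusted p = 0.201). At these counts the interval included no change and reached further on the higher side than on the lower. Per gene length, Epas1 stood at 0.00555 ± 0.00176 of Hif1a with phillyrin and at 0.00384 ± 0.00137 with OGD/R alone.

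The oxygen-sensing enzymes differed little. Egln1 (chr8:125635326-125676063) encodes PHD2, the prolyl hydroxylase that acts on HIF-1 alpha in most tissues, and had 55.2, 56.5 and 54.2 CPM with phillyrin, against 57.7, 56.6 and 56.4 CPM with OGD/R alone, a log2 difference between −0.15 and 0.07. Egln3 (chr12:54225767-54250646), which encodes the hypoxia-induced PHD3, had 12.6, 13.8 and 14.4 CPM with phillyrin and 13.8, 12.4 and 13.6 CPM with OGD/R alone. Its log2 interval was −0.17 to 0.25. In both genes the libraries of the groups overlapped. Egln2 (PHD1), Vhl, the substrate receptor of the ubiquitin ligase, and Hif1an, the asparagine hydroxylase that blocks coactivator binding, had log2 fold changes of −0.07, −0.03 and 0.03, with intervals that all lay between −0.22 and 0.14. Egln2 lay between 26.9 and 31.6 CPM with phillyrin and between 29.2 and 31.5 CPM with OGD/R alone; it overlaps Cyp2t4 by 11 bases. Vhl had 31.0, 34.8 and 31.6 CPM with phillyrin and 33.4, 31.6 and 34.7 CPM with OGD/R alone, and Hif1an had 58.8, 59.5 and 61.4 CPM against 59.3, 60.4 and 56.5 CPM. In none of these 3 genes did the groups separate. Of the summed FPKM of the 3 prolyl hydroxylases, Egln1 took 50.1% with phillyrin and 50.1% with OGD/R alone, Egln2 33.2% and 34.1%, and Egln3 16.6% and 15.8%, with phillyrin first in each pair.

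Collagen-modifying and endoplasmic reticulum (ER) oxidation enzymes held 3 of the 5 members that rose, among 6 tested (50%, beside 16% of all tested genes). As lower, 0 of the 6 passed in edgeR, DESeq2 or limma-voom, beside 15.6% of all tested genes in edgeR. An unadjusted p under 0.05 in that direction was found for 0 of them. Lox (chr18:52649139-52662939), the lysyl oxidase that starts the cross-linking of collagen and elastin outside the cell, had 952, 945 and 913 CPM with phillyrin, against 739, 737 and 755 CPM with OGD/R alone. The groups stood well apart, and the 1.26-fold rise (95% interval 1.20 to 1.32) passed the test with an adjusted p of 2.06e-10. Plod2 (chr9:92424276-92490481), the lysyl hydroxylase that acts on collagen telopeptides and so sets the type of cross-link, had 131, 130 and 119 CPM with phillyrin, against 101, 97.4 and 104 CPM with OGD/R alone. It also rose 1.26-fold (log2 fold change 0.33, SE 0.05, adjusted p = 5.37e-07), with phillyrin replicate 3 the lowest of its group and still above the OGD/R libraries. Ero1a (chr14:45520544-45556228), the oxidase that restores protein disulfide isomerase during folding in the ER, had 426, 385 and 420 CPM with phillyrin, against 344, 348 and 337 CPM with OGD/R alone. Its rise was 1.20-fold (log2 fold change 0.26, SE 0.04, adjusted p = 8.16e-07) and the groups did not overlap.

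The other 3 members of this role did not pass. P4ha1 and P4ha2, the catalytic subunits of the prolyl 4-hydroxylases that stabilise the collagen helix, had log2 fold changes of −0.06 (95% interval −0.15 to 0.03) and 0.11 (−0.01 to 0.24), and their libraries overlapped. P4ha2 passed without phillyrin replicate 3 (log2 fold change 0.18, adjusted p = 0.0177). Plod1, the lysyl hydroxylase of the collagen helix, had 59.8, 61.6 and 58.0 CPM with phillyrin, against 65.9, 63.3 and 61.8 CPM with OGD/R alone. Its groups did not overlap, with phillyrin lower, but the log2 fold change of −0.09 missed the threshold (95% interval −0.20 to 0.02, adjusted p = 0.238). Some markers of matrix-forming and contractile cells differed between the groups too. The summed level of 7 fibroblast markers, 2 of them at 0 in all libraries, was 1797 to 1950 CPM with phillyrin and 2281 to 2322 CPM with OGD/R alone. The difference lay mostly in Col3a1, with 1100 ± 67.1 CPM with phillyrin and 1394 ± 26.6 CPM with OGD/R alone, and in Col1a2, with 517 ± 6.99 and 623 ± 5.89 CPM in the same order. The lower-level Pdgfra also fell (log2 fold change −0.74), while Col1a1 (−0.04) and Dcn (0.17) did not pass. The summed level of 5 smooth muscle markers was 613 to 666 CPM with phillyrin and 442 to 466 CPM with OGD/R alone, and 0 of the 5 were at 0 in all libraries. This sum was nearly all Acta2, with 579 ± 29.5 CPM with phillyrin and 392 ± 12.4 CPM with OGD/R alone, and Smtn, with 67.4 ± 5.10 and 60.6 ± 0.366 CPM in the same order. Myh11, Cnn1 and Tagln stood at 0.644 CPM or less in every library. The part of these markers in the changes of Lox, Plod2 and Ero1a was not tested, and in bulk RNA a shift in cell types and a change of RNA per cell cannot be told apart.

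**Figure D3:**
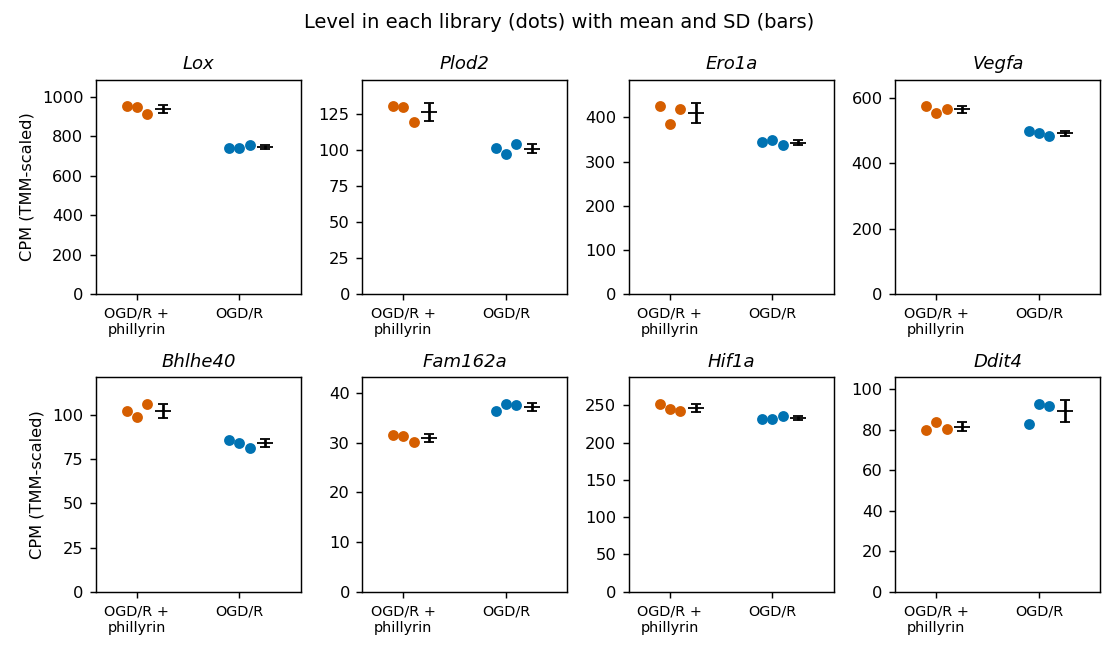
TMM-scaled CPM (vertical axes, from 0) of 8 members in each library, as dots, with the mean and SD of each group of 3 beside them, phillyrin left of OGD/R. For Lox, Plod2, Ero1a, Vegfa and Bhlhe40 every phillyrin library lies above every OGD/R library, and for Fam162a below; Hif1a also separates but missed the threshold, and in Ddit4 the groups overlap.

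Among the secreted signals, Vegfa (chr17:46327919-46343295), the main growth factor for blood vessels, had 576, 553 and 567 CPM with phillyrin, against 499, 494 and 483 CPM with OGD/R alone. All phillyrin libraries were higher, by 1.15-fold (95% interval 1.10 to 1.20, adjusted p = 1.05e-05). Angptl4, an inhibitor of lipoprotein lipase, had 129, 134 and 112 CPM with phillyrin and 137, 130 and 125 CPM with OGD/R alone. Stc2, a secreted glycoprotein, had 38.3, 41.5 and 43.6 CPM with phillyrin and 43.0, 43.1 and 43.9 CPM with OGD/R alone. For both the groups overlapped, and the log2 intervals were −0.16 to 0.05 and −0.21 to 0.06.

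Of 6 genes acting on mitochondria and energy supply, 1 fell (16.7%, near the 15.6% of all tested genes). In edgeR 0 rose, beside 16% of all tested genes, and likewise 0 with DESeq2 and with limma-voom. Ak4 alone had an unadjusted p under 0.05 on the higher side, with edgeR and limma-voom. Fam162a (chr16:35864131-35891964), a mitochondrial protein linked to hypoxia-induced cell death, had 31.6, 31.3 and 30.1 CPM with phillyrin, against 36.3, 37.8 and 37.6 CPM with OGD/R alone. The groups did not overlap, and the log2 fold change was −0.26 (SE 0.07, adjusted p = 0.00273). Fam162a overlaps Wdr5b on the opposite strand by 168 bases. The strand setting of the counting is not given in the sources used here, so reads of that stretch cannot be assigned to either gene. Bnip3 and Bnip3l encode mitophagy receptors. Bnip3l had 170, 173 and 184 CPM with phillyrin and 172, 169 and 185 CPM with OGD/R alone, so its groups covered the same range. Its log2 interval was −0.08 to 0.09. Bnip3, which stood per length at 0.0913 ± 0.0148 of Bnip3l with phillyrin and at 0.0887 ± 0.00473 with OGD/R alone, had an interval of −0.20 to 0.30. Its level was 10.4, 9.60 and 8.14 CPM with phillyrin and 9.52, 8.49 and 9.37 CPM with OGD/R alone. Higd1a, which associates with the respiratory chain, and Pdk1, the kinase that closes the entry of pyruvate into mitochondria, had log2 fold changes of −0.05 and −0.07, with overlapping libraries. Ak4, a mitochondrial adenylate kinase, had 20.3, 20.8 and 18.4 CPM with phillyrin and 15.9, 19.1 and 17.2 CPM with OGD/R alone; its log2 fold change of 0.19 missed the threshold (adjusted p = 0.107).

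Car9, the membrane carbonic anhydrase used as a hypoxia marker, was low, with 31, 76 and 48 counts with phillyrin and 27, 46 and 45 with OGD/R alone. Its log2 fold change of 0.51 had an interval of −0.01 to 1.04 (adjusted p = 0.131). Without phillyrin replicate 1, its log2 fold change was 0.76 and it passed the threshold (adjusted p = 0.0267). That library thus decided the call.

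Bhlhe40 (chr6:108637590-108643886), a transcriptional repressor of the circadian and hypoxic response, had 102, 98.6 and 106 CPM with phillyrin, against 86.0, 84.1 and 81.5 CPM with OGD/R alone. All phillyrin libraries were higher, by 1.22-fold (log2 fold change 0.28, SE 0.05, adjusted p = 1.54e-05). Mxi1, an antagonist of MYC, had 31.1, 32.6 and 29.0 CPM with phillyrin and 35.2, 34.3 and 33.6 CPM with OGD/R alone. These did not overlap, but the log2 fold change of −0.15 had an adjusted p of 0.113. Kdm3a, a histone demethylase, had 56.1, 52.0 and 51.8 CPM with phillyrin and 51.6, 51.3 and 57.9 CPM with OGD/R alone; the groups overlapped, with a log2 interval of −0.13 to 0.12. Ankrd37, an ankyrin repeat protein, had 2, 9 and 2 counts with phillyrin and 5, 6 and 4 with OGD/R alone and was below the filter; it overlaps Lrp2bp over 6405 bases. Ddit4 (chr10:59785491-59787656), also called REDD1, an inhibitor of mTORC1, had 79.9, 83.9 and 80.5 CPM with phillyrin and 82.8, 92.7 and 91.6 CPM with OGD/R alone. It narrowly missed the threshold (log2 fold change −0.13, 95% interval −0.23 to −0.02, adjusted p = 0.0560), and it passed without OGD/R replicate 1, the lowest of its group (log2 fold change −0.18, adjusted p = 0.0175). Ndrg1, a stress-responsive cytoplasmic protein, had 154, 153 and 159 CPM with phillyrin and 156, 153 and 151 CPM with OGD/R alone. Its groups overlapped, with a log2 interval of −0.06 to 0.10.

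For the 19 members that missed the threshold and stood above 10 CPM in every library, all 95% intervals lay between 0.818-fold and 1.30-fold. Epas1, Car9 and Bnip3 fell below 10 CPM in at least 1 library and are not in that count.

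The 250 bases before the RefSeq start (build GRCm38.p6) were read for the HIF core, ACGTG or GCGTG on either strand, for the 23 members with an entry in the promoter table; Angptl4, Bhlhe40, Bnip3l, Epas1, Lox, Ndrg1 and Plod2 had none. The core was found in 19 of the 23 (82.6%), beside 57.9% of the windows of tested genes and 38.6% of all 27025 windows. At least 3 places were found in 7 of the 23 (30.4%), beside 9.86% of the windows of tested genes. CACGTG, an E-box that contains the core on both strands and was counted once, was found in 2 members. Sequences are shown for the members that passed the test and have an entry, Ero1a, Vegfa and Fam162a, and for Bnip3 and Egln1, which did not pass, so that presence of the core can be set beside the response. They are written 5′ to 3′ along the gene's strand, which is the minus strand for all 5, with each core in capitals (CACGT and CACGC are the cores of the other strand). The positions are chr14:45318573-45318822 for Ero1a, chr17:46032378-46032627 for Vegfa, chr16:36071562-36071811 for Fam162a, chr7:138909507-138909756 for Bnip3 and chr8:124949255-124949504 for Egln1.
Ero1a: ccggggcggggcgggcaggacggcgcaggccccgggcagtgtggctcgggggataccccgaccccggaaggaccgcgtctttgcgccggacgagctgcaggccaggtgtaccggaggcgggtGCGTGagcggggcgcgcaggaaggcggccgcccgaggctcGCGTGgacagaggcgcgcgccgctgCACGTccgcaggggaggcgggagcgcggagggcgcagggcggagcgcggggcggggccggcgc
Vegfa: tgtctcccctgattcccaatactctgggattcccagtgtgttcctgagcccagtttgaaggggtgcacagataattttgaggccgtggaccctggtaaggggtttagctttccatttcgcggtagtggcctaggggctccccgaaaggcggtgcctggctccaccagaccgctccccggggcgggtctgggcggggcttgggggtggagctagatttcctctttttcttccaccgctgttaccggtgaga
Fam162a: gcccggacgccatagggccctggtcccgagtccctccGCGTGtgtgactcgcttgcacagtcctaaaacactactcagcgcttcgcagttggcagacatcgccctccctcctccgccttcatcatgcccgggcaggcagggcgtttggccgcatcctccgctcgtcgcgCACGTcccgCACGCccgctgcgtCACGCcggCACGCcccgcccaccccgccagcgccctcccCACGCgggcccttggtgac
Bnip3: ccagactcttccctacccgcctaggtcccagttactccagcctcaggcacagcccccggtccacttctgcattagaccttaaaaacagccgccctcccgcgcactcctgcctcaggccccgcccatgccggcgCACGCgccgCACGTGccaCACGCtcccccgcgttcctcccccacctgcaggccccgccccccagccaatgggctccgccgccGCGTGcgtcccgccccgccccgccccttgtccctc
Egln1: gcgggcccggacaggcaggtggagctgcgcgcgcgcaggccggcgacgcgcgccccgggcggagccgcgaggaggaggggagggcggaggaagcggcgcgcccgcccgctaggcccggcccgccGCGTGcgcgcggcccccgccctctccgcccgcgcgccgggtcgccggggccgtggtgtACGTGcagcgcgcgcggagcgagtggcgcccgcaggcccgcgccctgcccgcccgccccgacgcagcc
Ero1a, which rose, holds 3 places, and Fam162a, which fell, holds 6. Vegfa, which rose, holds 0 in this window. Bnip3 holds 4 and Egln1 holds 2, and neither passed the test. Of the 18 tested members that did not pass and have an entry, 15 hold the core. A match of these letters is a description of the sequence and not a binding site, and its absence says only that these letters are not in this window.

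Ratios between related members were taken within each library on the FPKM scale, for 6 pairs. With 3 libraries against 3, an exact two-sided permutation test cannot go below p = 0.1, so the test could not reach 0.05. Plod2 to Plod1 stood at 2.74, 2.65 and 2.58 with phillyrin, against 1.93, 1.93 and 2.11 with OGD/R alone. It was the only one of the 6 pairs whose groups did not overlap, with a log2 difference of 0.42 and the smallest p the test allows (exact p = 0.1, 0.6 adjusted over the 6 ratios). P4ha1 to P4ha2 stood at 2.88 ± 0.426 with phillyrin and 3.22 ± 0.175 with OGD/R alone (exact permutation p = 0.4, adjusted 0.6). Egln3 to Egln1 stood at 0.332 ± 0.0255 with phillyrin and 0.314 ± 0.0174 with OGD/R alone (exact permutation p = 0.4, adjusted 0.6), and Egln1 to Egln2 at 1.51 ± 0.100 and 1.47 ± 0.0577 in the same order (exact p = 0.6, adjusted 0.72). The exact p was 0.3 for Epas1 to Hif1a and 0.9 for Bnip3 to Bnip3l, whose values are given above.

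Around the members, 6 lists of related genes were read with the same test. The 13 tested genes of 15 that encode partners and cofactors of the HIF complex included 2 that fell and 0 that rose in edgeR. Likewise 0 rose with DESeq2 and with limma-voom. At an unadjusted p under 0.05, 0 were higher with edgeR and DESeq2 and 1 with limma-voom. The share that fell, 15.4%, was near the 15.6% of all tested genes, while 16% of all tested genes rose. Arnt, the obligate partner of the alpha subunits, had 65.4 ± 1.98 CPM with phillyrin and 78.0 ± 4.12 CPM with OGD/R alone (log2 fold change −0.25, SE 0.05, adjusted p = 0.000358). Cited2, a HIF target that competes with HIF-1 alpha for p300 and CBP, had 231 ± 7.86 CPM with phillyrin and 302 ± 3.46 CPM with OGD/R alone (log2 fold change −0.39, adjusted p = 1.00e-10). Elob, a subunit of the VHL ligase, and Rack1, which promotes degradation of HIF-1 alpha without VHL, did not pass (log2 fold changes −0.12 and 0.06). Elob passed as lower without phillyrin replicate 2 (adjusted p = 0.0349), and Rack1 as higher without phillyrin replicate 3 (adjusted p = 0.0172).

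Of the glycolytic HIF targets, 21 of 23 were tested. Among them 12 fell (57.1%), 1 rose (4.76%) and 8 did not pass, beside 15.6% lower and 16% higher over all tested genes. The list's median was −0.17 on the log2 scale, beside −0.01 over all tested genes. Hk1, a hexokinase, had 143 ± 7.68 CPM with phillyrin and 199 ± 2.96 CPM with OGD/R alone (log2 fold change −0.48). Ldha, lactate dehydrogenase A, had 744 ± 37.8 CPM with phillyrin and 973 ± 13.1 CPM with OGD/R alone (log2 fold change −0.39). Pfkl and Pgk1, a phosphofructokinase and phosphoglycerate kinase, had log2 fold changes of −0.35 and −0.29. The gene that rose was Aldoc, an aldolase (log2 fold change 1.06, adjusted p = 0.0391), and it did not pass with DESeq2 or with either of the other filters on low counts, nor without phillyrin replicate 2 or without OGD/R replicate 2. Of 33 other hypoxia targets tested, 5 rose (15.2%, near the 16% of all tested genes) and 10 fell (30.3%, beside 15.6%), with a median of −0.11. Hmox1, heme oxygenase 1, had 64.7 ± 1.30 CPM with phillyrin and 51.6 ± 0.179 CPM with OGD/R alone (log2 fold change 0.33), and Lonp1, a mitochondrial protease, rose by 0.27. Zfp395, a zinc finger protein, and Met, the receptor of hepatocyte growth factor, fell by 0.93 and 0.30 on the log2 scale.

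The family of Lox did not move as a whole. Of 15 other collagen-modifying enzymes tested, 3 fell and 0 rose (edgeR; 0 with DESeq2 and limma-voom, 1 at an unadjusted p under 0.05 with edgeR), and the 3 that fell are all lysyl oxidase-like enzymes. The share that fell, 20%, was near the 15.6% of all tested genes, while 16% of all tested genes rose. Loxl4 had 12.0 ± 1.61 CPM with phillyrin and 20.7 ± 1.18 CPM with OGD/R alone (log2 fold change −0.78, adjusted p = 1.05e-07). Loxl3, which overlaps Htra2 on the other strand by 1297 bases, and Loxl2 fell by 0.34 and 0.28 on the log2 scale, while Loxl1 had a log2 fold change of 0.14 (adjusted p = 0.104) and passed as higher without phillyrin replicate 1 (0.20, adjusted p = 0.0232); 2 enzymes of the list were then higher. Within libraries, on the FPKM scale, Lox stood at 69.7 ± 8.19 times Loxl4 with phillyrin and at 31.8 ± 1.89 times with OGD/R alone. The log2 difference of this ratio was 1.13, that of Lox to Loxl3 0.68, to Loxl2 0.61 and to Loxl1 0.20. These ratios were chosen after their values were seen and were not tested.

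Of 24 tested paralogs of members, 1 rose (4.17%) and 3 fell (12.5%), both shares below the 16% and 15.6% of all tested genes. Angptl2, a relative of Angptl4, had 572 ± 3.71 CPM with phillyrin and 447 ± 15.6 CPM with OGD/R alone (log2 fold change 0.36, adjusted p = 1.35e-10). Mnt, which like Mxi1 opposes MYC, fell by 0.45 on the log2 scale, and Ak3, an adenylate kinase like Ak4, by 0.14. Ak3 overlaps Cdc37l1 on the other strand by 5849 bases, with a mean count of 1245 against 1728 for Cdc37l1. Angptl2 overlaps Ralgps1 on the other strand by 31649 bases, and Ralgps1 had a mean count of 50.8. With DESeq2, 1 paralog passed as lower, Mnt, and Ak3 did not. When single libraries were left out, Ak3 kept its call only without OGD/R replicate 1 or without phillyrin replicate 1, and 1 to 3 paralogs were called lower. Of 8 receptors for the members' ligands, 4 were tested. Among these 1 rose (25%) and 2 fell (50%), beside 16% and 15.6% of all tested genes. Nrp1, a VEGF co-receptor, rose by 0.29 on the log2 scale. Flt1, the VEGF receptor 1, had 5.95 ± 0.473 CPM with phillyrin and 9.28 ± 0.191 CPM with OGD/R alone (log2 fold change −0.64). Calcrl, the adrenomedullin receptor subunit, fell by 0.38 on the log2 scale, and Nrp2 did not pass (0.08). Kdr, VEGF receptor 2, had 0 counts in all libraries, which allows a level of up to 0.0269 CPM.

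**Figure D4:**
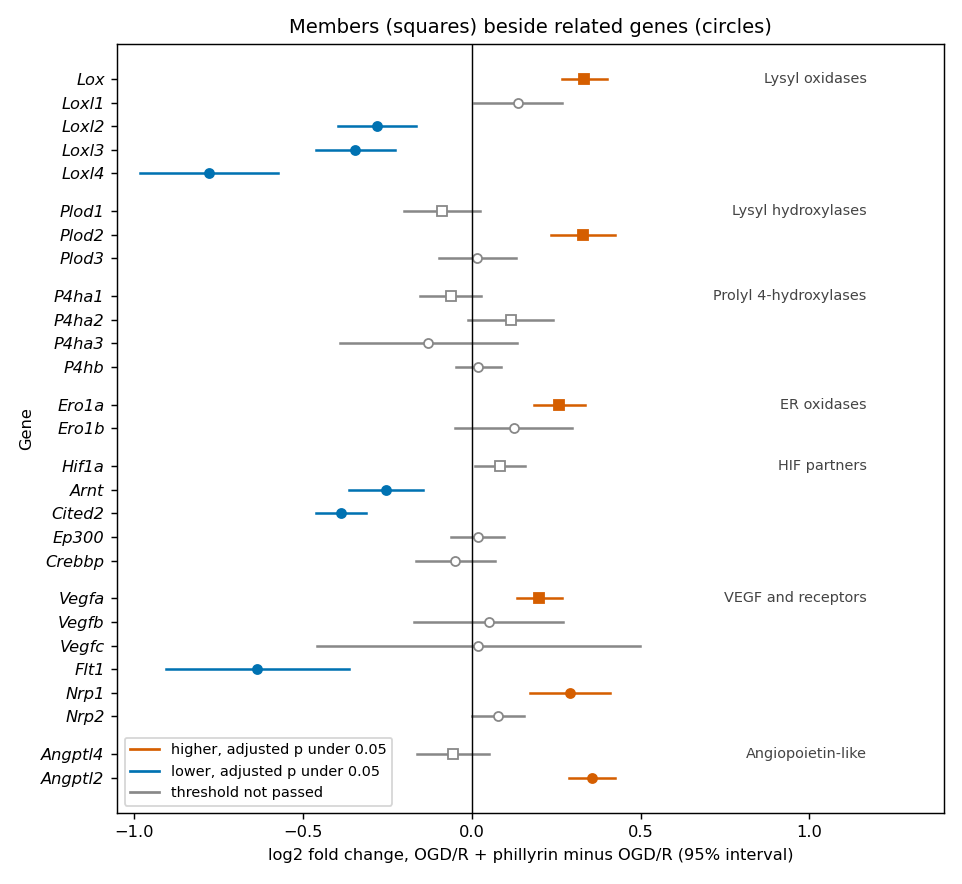
Log2 fold change, OGD/R with phillyrin minus OGD/R (horizontal axis), with its 95% interval, of members (squares) and related genes (circles) by family, for 3 libraries per group; colour marks an adjusted p under 0.05. Lox lies to the right of 0 and Loxl2, Loxl3 and Loxl4 to the left; Vegfa and Nrp1 lie to the right and Flt1 to the left.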

How the data were processed

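The submitters' processing notes name featureCounts 2.0.3, HISAT2 2.2.1, Trimmomatic 0.39 and DESeq2 1.34.0, with build GRCm39. What each tool did, the strand setting and the handling of multiply aligned reads are not given there. Libraries were poly(A)-selected and sequenced as paired-end reads of 150 bases, per the labels. The authors deposited a table with a raw read count per gene and library, per the file headers. They also deposited FPKM values, which equalled count over length and library total to within a relative difference of 2.43e-07. Sample titles tied columns to libraries, since the descriptions of the 3 phillyrin samples point to a single column. The 51 rows without a symbol held at most 0.00743% of a library's counts.

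Counts were filtered with filterByExpr, scaled with TMM factors and tested with edgeR 4.0.16 (robust quasi-likelihood test, two-sided) in R 4.3.3, with Benjamini-Hochberg adjustment over the 11658 tested genes, a threshold of 0.05 and no covariate, since all libraries share a batch label. CPM values use TMM-scaled library sizes. Intervals are the log2 fold change plus or minus its SE times the t quantile; limits for 0 counts are 3 counts of the library total and cover counting error only. FPKM served for levels between genes. Alternatives were RLE scaling, library size only, DESeq2 1.42.0, limma-voom (limma 3.58.1), other filters, each library left out, the replicate number as a block and a minimum change of 0.32 on the log2 scale. The test was checked on simulated data. Replicates of a group differed by more than sampling noise, so none was a repeat deposit.

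The members, the lists and the tests were chosen with earlier results of these data known. Named are all 30 members and, from each related list, the 4 tested genes with the smallest p-values, of which 1 is not reported here; Aldoc, Kdr, the marker genes and the further relatives drawn with the families were named besides, after their values were seen. Promoter windows are RefSeq sequences of build GRCm38.p6, and no coordinate was converted between builds. Aldoa, which has more than 1 row, was taken from the row with more counts.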

Additional observations from a re-analysis of the deposited data

How the results depend on the processing

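The 6 members that passed kept their direction and call under all 13 alternatives of scaling, tool, filter, left-out library and block. Vegfa ranged from 0.16 to 0.22 on the log2 scale, Lox from 0.29 to 0.36, Plod2 from 0.29 to 0.37, Ero1a from 0.21 to 0.31, Bhlhe40 from 0.24 to 0.32 and Fam162a from −0.31 to −0.24. Against a minimum change of 0.32 on the log2 scale, 0 members passed as higher and 0 as lower. With library size only, 3 members fell (Fam162a, Mxi1 and Ddit4), 5 paralogs fell, and log2 fold changes turned to −0.0055 for Egln3, −0.016 for Hif1an, −0.040 for Bnip3l and −0.026 for Ndrg1. The median over all tested genes then moved from −0.01 to −0.06, and that of the members from 0.01 to −0.03. The scaling factors left out were 0.974 to 0.991 with phillyrin and 1.01 to 1.02 with OGD/R alone. Why they differed between the groups was not tested. DESeq2, no filter and a mean of at least 1 CPM each left 0 glycolytic genes higher, and DESeq2 and no filter left 1 paralog lower.

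With each library left out in turn, 5 to 7 members rose and 1 to 2 fell. Hif1a (0.10, adjusted p = 0.0389) and P4ha2 (0.18, adjusted p = 0.0177) passed without phillyrin replicate 3. In the lists, 0 to 1 partner, 0 to 1 glycolytic gene and 0 to 2 collagen enzymes rose, and 1 to 3 paralogs fell. The log2 fold change crossed 0 for 8 members that did not pass: Egln3 (−0.012 to 0.098), Vhl (−0.082 to 0.014), Angptl4 (−0.11 to 0.021), Bnip3 (−0.017 to 0.14), Bnip3l (−0.026 to 0.043), Higd1a (−0.17 to 0.045), Pdk1 (−0.14 to 0.0018) and Kdm3a (−0.040 to 0.050). The log2 difference of the ratio Bnip3 to Bnip3l ranged from −0.073 to 0.16.

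Deviations of same-numbered libraries from their group means correlated at 0.00278, 0.00561 and 0.00322 over 11658 genes. Those of libraries with different numbers correlated at −0.00459 to 0.00126. All values were near 0, and they cannot tell whether same-numbered libraries were handled together. With the replicate block, 5 members rose and 1 fell and no member's call changed. Ak3 no longer passed, 2 paralogs fell and 11 other hypoxia targets fell. Low counts limit Epas1, Car9, Ankrd37 and Adm.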
